A study of Mus musculus with 4 samples.

Results

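The urokinase receptor and plasminogen activator system was followed through 5 genes, taken by name from a deposited table of 22079 genes: Plaur, Plau, Plat, Serpine2 and Plgrkt. All 5 were found in the table. The set was put together with the knockout against wild-type values of these libraries already known, Plaur being among the genes with the clearest separation, so the genotype differences of the 5 genes are given as a description and carry no test. RNA had been sequenced from primary hepatocytes, the cells that make up most of the liver, in 4 libraries: 2 from wild-type C57BL/6 mice (WT 1 and WT 2) and 2 from C57BL/6 mice with the genotype Prom1-/- (KO 1 and KO 2), all from age-matched males of 8 weeks. Cells of both genotypes had attached for 4 hours in 199 medium with dexamethasone (10 nM), HEPES (23 mM) and 10% FBS, and were then kept overnight without serum. The labels do not say whether Prom1 was removed in every tissue or in hepatocytes alone, and the effect of the loss in hepatocytes without serum is the question of the design.

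The plasminogen system is a proteolytic cascade. Urokinase (Plau) and tissue plasminogen activator (Plat) are serine proteases that cut the circulating zymogen plasminogen, which the liver makes, into plasmin, and plasmin dissolves fibrin and degrades matrix proteins. The urokinase receptor (Plaur) is a GPI-anchored surface protein that holds urokinase at the cell membrane and has integrins and vitronectin as partners. Plgrkt is a transmembrane receptor that binds plasminogen, and Serpine2 (protease nexin 1) is a secreted serpin that inhibits urokinase, tissue activator, plasmin and thrombin. In the injured or regenerating liver, urokinase and plasmin also release and activate hepatocyte growth factor.

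The deposited values were read as FPKM (fragment counts divided by transcript length and by the number of mapped fragments), which can be compared between genes of different length. An estimated 15300000 to 18400000 fragments lay behind each library, and 10327 to 10424 genes reached 1 FPKM. Prom1, the targeted gene, stood at 0.571 and 1.22 FPKM in WT 1 and WT 2 and at 0.0458 FPKM in KO 2, and was listed at 0 in KO 1. The 8 hepatocyte markers were abundant, summing without Alb to 13600 and 15750 FPKM in WT 1 and WT 2 and to 13320 and 14400 FPKM in KO 1 and KO 2, and Alb was listed at 0 in WT 2, which in tables of this kind can be a failed estimate. Of the 8, 7 stood lower and 1, Alb with its listed 0, higher in KO on the log2 scale. KO lay below WT for Hnf4a and Trf and above WT for 0, where 19.8% and 18.3% of all genes tested did so. Ttr, Apoa1, Asgr1 and Serpina1c differed by -0.04, -0.02, -0.02 and -0.08, with overlapping genotypes. Hnf4a, a transcription factor of hepatocyte identity, stood at 90.4 and 95.8 FPKM in the WT libraries against 64.9 and 59.5 in the KO libraries (log2 difference -0.58, limma adjusted p = 0.469). Cps1, of the urea cycle, was at 305 and 535 FPKM against 201 and 345, with overlapping genotypes (-0.61). Hnf4a and Cps1 had the largest differences of these markers apart from Alb. Hepatocyte markers other than Alb and Apoa1 were named after their values were seen. In such bulk libraries, fewer cells of a type and less RNA per cell cannot be told apart. The part of these markers' differences in those of the 5 genes was not tested. None of the 5 genes was listed at 0 in any library.

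Plaur is the member on which the results turn, and its upstream sequence is shown for that reason. The gene (ENSMUSG00000046223) lies on the plus strand of chromosome 7, 24462484 to 24475968 in GENCODE M21 on GRCm38, the assembly also called mm10. Upstream windows from RefSeq, on GRCm38.p6, were matched for 3 of the 5 genes, Plaur, Serpine2 and Plgrkt. The 250 bases before the RefSeq start of Plaur, chr7:24462233-24462482 on the plus strand, are printed with matches to TGANTCA and to GGGCGG or CCGCCC in capitals. TGANTCA is the core bound by AP-1 (Fos and Jun family dimers), and GGGCGG is the GC box bound by Sp family factors.
Plaur upstream: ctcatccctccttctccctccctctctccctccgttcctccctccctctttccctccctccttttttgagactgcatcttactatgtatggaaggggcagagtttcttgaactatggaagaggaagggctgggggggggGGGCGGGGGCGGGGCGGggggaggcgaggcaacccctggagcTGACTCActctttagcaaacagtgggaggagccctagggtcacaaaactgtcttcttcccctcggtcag
The window has 1 AP-1 match, TGACTCA, whose first base is at position -69 with the start base counted as 0. It has 3 GC boxes, at -111, -105 and -100, the last pair sharing 1 base. Searched on both strands, TGANTCA was present in 6.75% of 32851 upstream windows of the same length, GGGCGG in 32.7% and CCAAT in 33.8%. G and C made up 59.6% of the Plaur window, against a median of 52.4% over all windows. The Serpine2 and Plgrkt windows overlap annotated exons of their own genes and are not printed; they held 6 and 2 GC boxes and no TGANTCA. A match of letters is a description of the window and shows no binding.

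Plaur was the most abundant of the 5 genes and the member whose genotypes stood farthest apart relative to its spread. Its level was 46.0 FPKM in WT 1 and 43.0 in WT 2, against 67.7 in KO 1 and 68.2 in KO 2. Both KO values were above both WT values, and within each genotype the libraries were close together. The group means were 44.5 ± 2.11 FPKM (WT) and 68.0 ± 0.352 FPKM (KO; SD, n = 2), a ratio of KO to WT of 1.53. On the log2(FPKM + 1) scale the difference was 0.60 (SE 0.095). Of the 10407 genes tested, those averaging 1 FPKM or more, 99 rose by more in KO, with falls of any size not counted. An estimated 1237 to 2170 fragments lay behind each value, so counting error was small beside the difference between the genotypes: the 95% Poisson intervals ran from 40.6 to 48.3 FPKM in WT and from 64.9 to 71.4 FPKM in KO. These intervals cover counting error only and rest on the estimated depth.

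**Figure D1:**
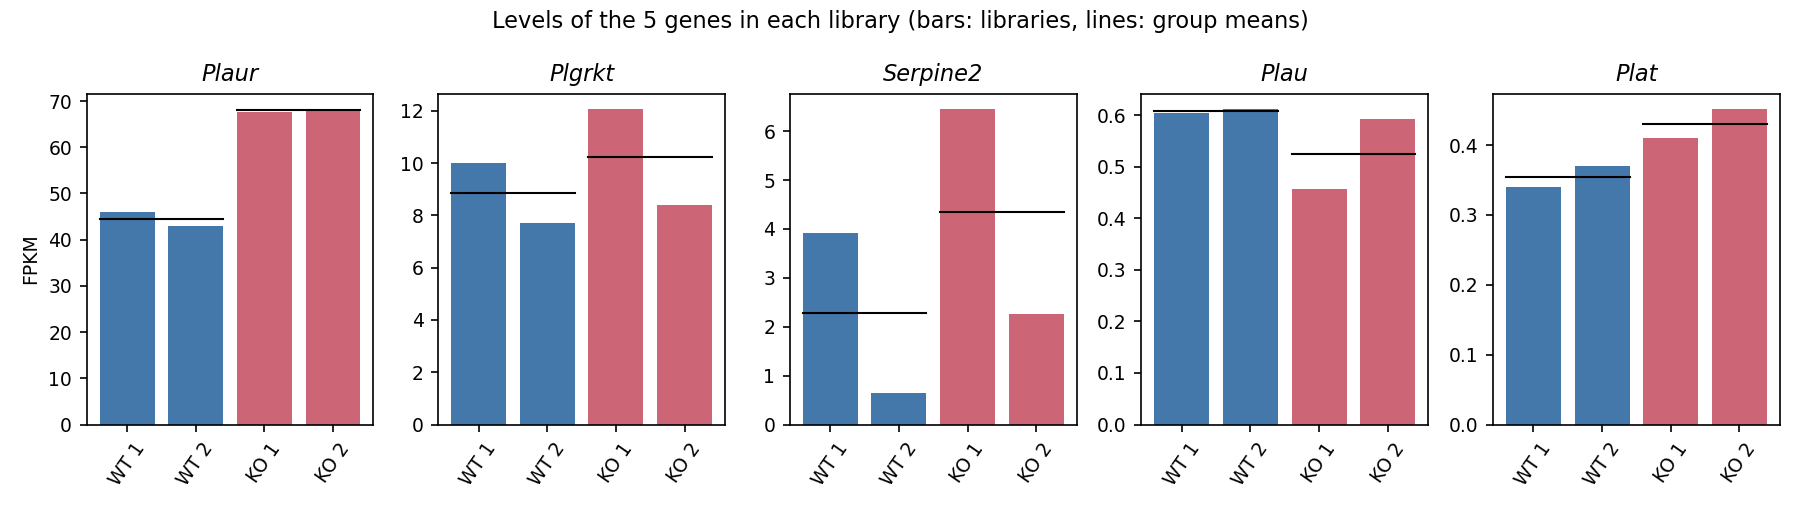
Level of each of the 5 genes in FPKM, with 1 bar per library (blue for WT, red for KO), a horizontal line at each group mean and a separate axis from 0 for each gene. Plaur is near 68 FPKM in both KO libraries and at 46.0 and 43.0 FPKM in WT, whereas Serpine2 and Plgrkt differ as much within a genotype as between genotypes.

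Among the members, the activators Plau and Plat were scarce in these cells. Plau, the gene of urokinase (ENSMUSG00000021822; chromosome 14, 20836660 to 20843385, plus strand), stood at 0.604 FPKM in WT 1 and 0.611 in WT 2, against 0.456 in KO 1 and 0.593 in KO 2. Both KO values were below both WT values, but KO 2 lay only slightly under WT 1. The means were 0.608 ± 0.0049 FPKM (WT) and 0.525 ± 0.0967 FPKM (KO; SD, n = 2), with a log2 difference of -0.08 (SE 0.080). Only an estimated 17 to 24 fragments lay behind each library's value, and the 95% counting interval of the lowest, 0.261 to 0.718 FPKM in KO 1, held the values of all 4 libraries. The observed genotype difference in Plau therefore lay within counting error at the estimated depth.

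Plat, the gene of tissue plasminogen activator, was lower still. It lies on the plus strand of chromosome 8, 22757727 to 22782844 (ENSMUSG00000031538). Its level was 0.340 FPKM in WT 1 and 0.370 in WT 2, against 0.410 in KO 1 and 0.451 in KO 2. The KO libraries lay above the WT libraries, in the opposite direction to Plau, at means of 0.430 ± 0.0294 and 0.355 ± 0.0212 FPKM (SD, n = 2) and a log2 difference of 0.08 (SE 0.058). With an estimated 23 to 28 fragments per library, the counting interval of the highest value, 0.303 to 0.668 FPKM in KO 2, held all 4 values. Both activators missed the mean of 1 FPKM required of the genes tested, so their differences come from the values alone and their SEs from the same model fitted to 15152 genes with any value above 0.

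Serpine2, the inhibitor, varied more between libraries of 1 genotype than any other of the 5 genes. It spans 79794197 to 79861180 of chromosome 1, on the minus strand (ENSMUSG00000026249). It stood at 3.92 FPKM in WT 1 and 0.644 in WT 2, against 6.45 in KO 1 and 2.25 in KO 2. The genotypes overlapped, since WT 1 exceeded KO 2, and WT 2 stood apart below the other libraries. The means were 2.28 ± 2.31 FPKM (WT) and 4.35 ± 2.97 FPKM (KO; SD, n = 2), and the log2 difference of 0.79 had an SE of 0.60. That difference came to 0.0011 without WT 2, 0.19 without KO 1, 1.39 without KO 2 and 1.58 without WT 1. The number of fragments, estimated at 33 in WT 2 and 110 to 365 elsewhere, was enough to tell WT 1 from WT 2, whose counting intervals were 3.42 to 4.45 and 0.447 to 0.913 FPKM.

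Plgrkt, the plasminogen receptor, was the second most abundant of the 5. It spans 29348599 to 29367390 of chromosome 19, on the minus strand (ENSMUSG00000016495). Its level was 9.99 FPKM in WT 1 and 7.70 in WT 2, against 12.1 in KO 1 and 8.40 in KO 2. The genotypes overlapped, WT 1 lying above KO 2, with means of 8.84 ± 1.62 FPKM (WT) and 10.2 ± 2.59 FPKM (KO; SD, n = 2) and a log2 difference of 0.18 (SE 0.20). The difference changed sign when KO 1 was left out (-0.06) and was 0.01 without WT 2. Serpine2 and Plgrkt had the same order of libraries, KO 1 highest, then WT 1, KO 2 and WT 2.

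**Figure D2:**
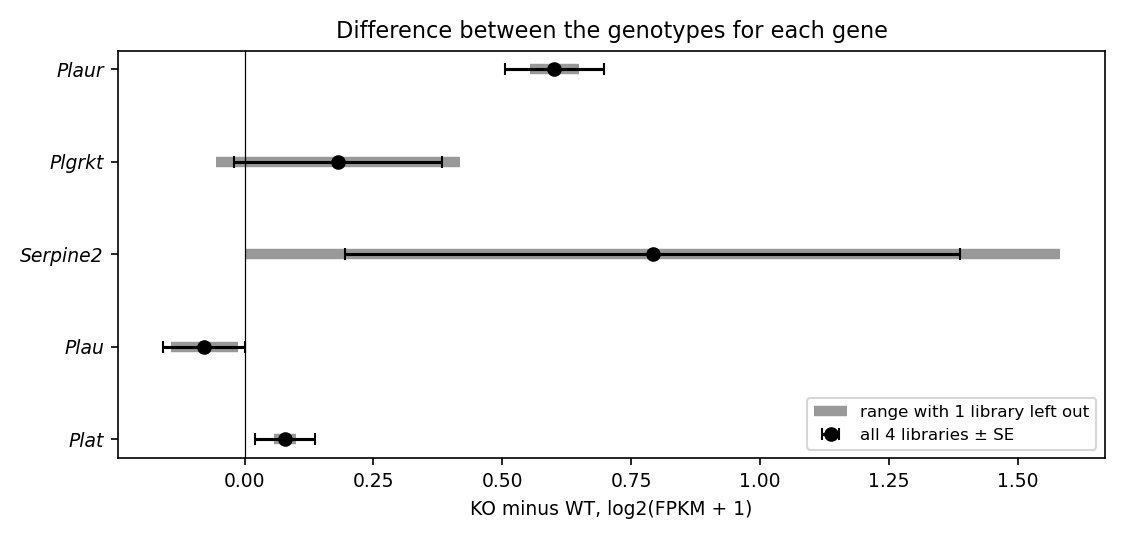
KO minus WT on the log2(FPKM + 1) scale for each of the 5 genes, with points and bars for the value and SE from all 4 libraries and grey bands for the range when any 1 library is left out. The band of Plaur runs from 0.55 to 0.65, that of Serpine2 from 0.0011 to 1.58, and that of Plgrkt crosses 0.

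Across all genes the comparison called nothing. By limma on log2(FPKM + 1), 0 of 10407 genes (0%) passed a Benjamini-Hochberg adjusted p of 0.05, the smallest such value being 0.239. Without adjustment 759 genes, or 7.29%, had a p under 0.05, and without the intensity trend the counts were 0 and 730. KO and WT libraries did not overlap for 38.1% of the genes tested, with KO above WT in 18.3% and below in 19.8%. Of the 5 members 3 passed the filter on low values, and Plaur alone of these 3 had libraries that did not overlap, a count that is read against that 38.1% and shows nothing beyond it. Plau and Plat, under the filter, also had libraries that did not overlap, at levels where the counting intervals at the estimated depth covered the gap.

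Levels of the 5 genes, being per length, could be ordered within the libraries. Plaur came first in all 4 libraries, at 4.60 to 8.12 times the level of Plgrkt, and its mean exceeded that of 87.3% of the genes tested. Plgrkt exceeded Serpine2 in all 4 libraries, by 1.87 to 11.9 times, and the ranges of the 2 genes did not overlap. Serpine2 and Plau did not differ beyond counting error at the estimated depth in WT 2, where the ratio was 1.05, but differed by 3.80 to 14.1 times elsewhere. Plau exceeded Plat by 1.11 to 1.78 times, in 4 of 4 libraries, with counting intervals that overlapped in each. An exact two-sided sign-flip permutation test of that last difference over the 4 libraries, both genotypes together, gave p = 0.125, the smallest it can give. Any pair with the same order in all 4 libraries gives that value, so the test adds nothing to the order. The receptor transcript stood far above that of its ligand: Plaur was 76.1 and 70.3 times Plau in WT 1 and WT 2 and 148 and 115 times Plau in KO 1 and KO 2. The size of these ratios is imprecise, since an estimated 17 to 24 fragments lay behind each Plau value and the counting intervals of Plau overlapped between libraries.

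The substrate of the activators, plasminogen, was an abundant hepatocyte transcript. Plg stood at 217 FPKM in WT 1 and 299 in WT 2, against 191 in KO 1 and 290 in KO 2. That is 359 to 489 times Plau, with the same limit from the few Plau fragments. The genotypes overlapped, with a log2 difference of -0.11 that changed sign when single libraries were left out. Plg shares exonic bases with Slc22a3 on the opposite strand, and whether counting used strand is not given in the sources used here, which leaves its value uncertain.

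A wider list of 52 genes, grouped by role around these 5, held 41 genes that passed the filter. Of the 41, 20 stood higher and 21 lower in KO, the median log2 difference was -0.05 against -0.0011 over all genes tested, and the sign of 17 of the 41 changed when some 1 library was left out. Libraries did not overlap for 14 genes, 8 with KO above and 6 with KO below, where 38.1% of all genes tested did so. By limma 0 of the 41 passed over all genes tested, the lowest adjusted p being 0.519, and 9 had an unadjusted p under 0.05 (7.29% of all genes did), 5 higher and 4 lower. Of 5 activating proteases on the list, 4 passed the filter, 2 higher and 2 lower in KO, all with overlapping genotypes. The most abundant of them, F12, was at 322 to 409 FPKM, far above Plau and Plat, and was named after its values were seen. The list was chosen with earlier results of these data known and is not every gene of the system.

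Among inhibitors of plasmin and of the activators, 5 of 9 passed the filter and 4 of those stood lower in KO. Serpinb6a, an intracellular serpin, was the exception, at 23.6 FPKM in WT 1 and 13.9 in WT 2, against 41.6 in KO 1 and 25.4 in KO 2 (log2 difference 0.81, limma adjusted p = 0.665). Its KO libraries lay above its WT libraries, by a small margin between KO 2 and WT 1. It shares exonic bases with Nqo2 and Ripk1 on the opposite strand, and has close relatives in its serpin cluster. Pzp, the alpha-macroglobulin that circulates in mice and traps proteases, had the highest level of the list, at 914 FPKM in WT 1 and 1270 in WT 2, against 665 in KO 1 and 902 in KO 2 (log2 difference -0.48, limma adjusted p = 0.706). There the highest KO library came close to the lowest WT library. Cpb2, a plasma carboxypeptidase that slows fibrinolysis, stood at 309 and 285 FPKM in the WT libraries against 217 and 223 in the KO libraries, with KO below WT (-0.43, limma adjusted p = 0.540) and a range of -0.49 to -0.37 with 1 library left out. Serpinf2, the main plasma inhibitor of plasmin, was at 292 to 334 FPKM and differed by -0.05, and Serping1, the C1 inhibitor, was at 327 to 496 FPKM and differed by -0.19. These secreted inhibitors were abundant where Serpine2 was low: Serping1 was 50.7 to 770 times Serpine2. Cpb2, Serpinf2 and Serping1 were named after their values were seen, and the sign of the differences of Serpinf2 and Serping1 changed with the library left out.

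Partners of the urokinase receptor, 11 genes that all passed the filter, ranged from -0.35 (Egfr) to 0.47 (Itga3) on the log2 scale, both with overlapping genotypes. Of the 11, 8 stood higher and 3 lower in KO, where 5168 of all genes tested stood higher and 5234 lower, and libraries did not overlap for 6, with KO above for Itgav, Itgb1, Itgb2, Itgb5 and Igf2r and below for Itgb3, against 18.3% above and 19.8% below over all genes tested. The integrin subunit gene Itgb1 was the most abundant of these 6, at 192 and 195 FPKM in the WT libraries against 222 and 218 in the KO libraries (log2 difference 0.18), and Itgav stood at 41.7 and 43.0 FPKM in the WT libraries against 55.5 and 48.9 in the KO libraries (0.29). By limma the adjusted p was 0.732 for Itgb1 and 0.651 for Itgav. The integrin genes, Egfr and Igf2r were named after their values were seen. Vtn, the gene of vitronectin, a matrix and plasma protein that binds the urokinase receptor, was at 697 and 969 FPKM in the WT libraries against 618 and 855 in the KO libraries, with overlapping genotypes (-0.18).

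Clearance receptors and plasminogen-binding proteins showed no common direction. Of 6 clearance receptor genes tested 4 stood higher and 2 lower, and of 6 plasminogen-binding proteins 3 stood higher and 3 lower. Eno1, a glycolytic enzyme that also binds plasminogen at the cell surface, stood at 279 and 284 FPKM in the WT libraries against 197 and 210 in the KO libraries (log2 difference -0.47), with the lowest limma adjusted p of the 41 genes, 0.519. Hist1h2bc, a histone gene with close copies, also had KO below WT (-0.58, limma adjusted p = 0.652). Lrp1, the endocytic receptor that removes urokinase-inhibitor complexes together with the urokinase receptor, stood at 41.4 and 44.9 FPKM in the WT libraries against 30.0 and 37.9 in the KO libraries (log2 difference -0.35, limma adjusted p = 0.682). The annexin pair that binds plasminogen at the cell surface, Anxa2 and S100a10, was at 149 to 197 and 348 to 411 FPKM with overlapping genotypes. Lrp1, Eno1, Hist1h2bc, Anxa2 and S100a10 were named after their values were seen.

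Substrates of plasmin and urokinase included both ends of the list. Thbs1, the gene of thrombospondin 1, stood at 2.23 FPKM in WT 1 and 3.95 in WT 2, against 5.21 in KO 1 and 8.59 in KO 2, the largest difference among the 41 genes (0.95, limma adjusted p = 0.586). Both KO values were above both WT values, and KO 2 was the highest. Fn1, the gene of fibronectin, had the lowest value, -0.78 (limma adjusted p = 0.690), at 214 FPKM in WT 1 and 417 in WT 2, against 137 in KO 1 and 219 in KO 2. WT 2 stood apart above the rest, the genotypes overlapped, and without WT 2 the difference was -0.30. Fga, a fibrinogen chain gene, had the same pattern, at 482, 972, 351 and 518 FPKM in the same order (-0.68), and came to -0.18 without WT 2. Thbs1, Fn1, Pzp, Itgav and Anxa2 each share exonic bases with a gene annotated on the opposite strand, with the same uncertainty as for Plg.

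**Figure D3:**
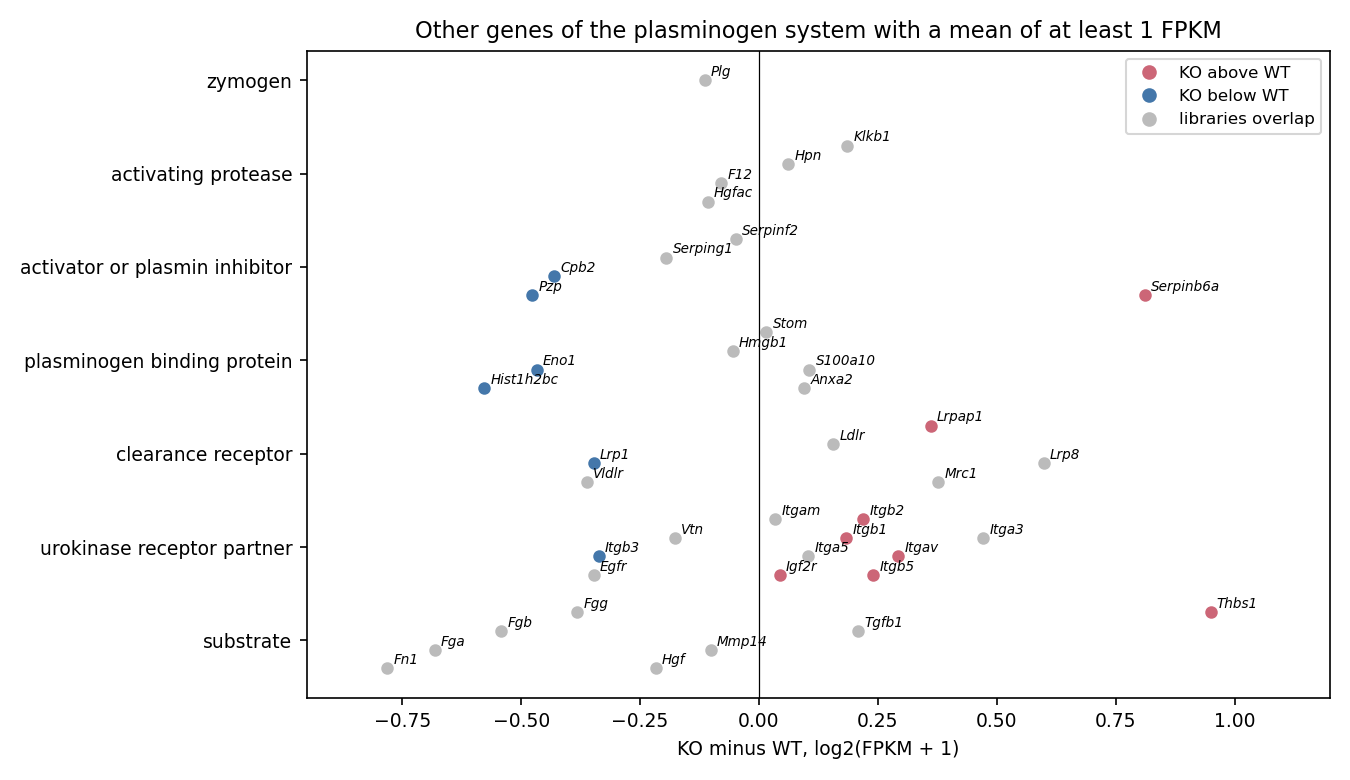
KO minus WT on the log2(FPKM + 1) scale for the 41 tested genes of the wider list, in rows by role, red where the KO values both exceeded the WT values, blue where both lay below, and grey where they overlapped. Substrates run from Fn1 at -0.78 to Thbs1 at 0.95, and 8 of 11 receptor partners lie right of 0.

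Among relatives of Plaur with the Ly6 and urokinase receptor domain, no tested member had both KO libraries above both WT. Of 23 such genes 10 were listed at 0 in all 4 libraries and 6 passed the filter, 0 of them with KO above WT (18.3% of all genes tested) and 2 with KO below (19.8%). Ly6e, a GPI-anchored member, was the most abundant, at 1476 and 1360 FPKM in the WT libraries against 1258 and 1410 in the KO libraries, with overlapping genotypes (-0.09). Ly6d, another GPI-anchored member, stood at 44.6 and 67.4 FPKM in the WT libraries against 32.2 and 37.4 in the KO libraries, the largest difference of the 6 (-0.65, limma adjusted p = 0.586). Cd59a, which protects cells from complement, was at 37.1 to 49.1 FPKM (-0.07). Gpihbp1, which carries lipoprotein lipase in capillaries, differed by 0.48 and Cd59b by 0.36, both with overlapping genotypes.

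Of the genes next to Plaur on chromosome 7, Smg9, Cadm4 and Zfp428 passed the filter. Smg9, of the nonsense-mediated decay machinery, stood at 7.43 and 7.20 FPKM in the WT libraries against 10.7 and 9.68 in the KO libraries, with KO above WT (log2 difference 0.43, limma adjusted p = 0.562). Cadm4, an adhesion molecule gene downstream of Plaur, was at 3.08 FPKM in WT 1 and 0.759 in WT 2, against 4.12 in KO 1 and 1.98 in KO 2, with overlapping genotypes. Its log2 difference of 0.55 was close to that of Plaur, but ranged from -0.06 to 1.15 with 1 library left out. Zfp428 stood at 1.17 and 0.947 FPKM in the WT libraries against 1.47 and 1.39 in the KO libraries (0.24). Kcnn4 reached 0.0185 FPKM in WT 2 and was listed at 0 elsewhere, and Irgc1 was listed at 0 in all 4.

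The genes most like Plaur in their course over the 4 libraries were Cops8, Tert, Hbegf, Anp32e and Smpdl3b. Likeness was measured as the root mean square distance of log2(FPKM + 1), centred on each gene's mean, and came to 0.0163 for Cops8, 0.0213 for Tert, 0.0359 for Hbegf, 0.0391 for Anp32e and 0.0398 for Smpdl3b. Within a distance of 0.1 lay 40 of 10406 other tested genes. Cops8, a subunit of the COP9 signalosome, stood at 26.6 and 25.3 FPKM in the WT libraries against 40.4 and 39.7 in the KO libraries. Hbegf, a ligand of the EGF receptor, stood at 3.58 and 3.30 FPKM in the WT libraries against 5.35 and 5.81 in the KO libraries. The distance uses the same 4 values in which Plaur was chosen, so it describes these libraries only.

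Urokinase receptor is also made by macrophages and neutrophils, and markers of other liver cells were read beside it. All 12 Kupffer cell and macrophage markers were above 0 in every library, and 6 of them had both KO values above both WT values and 1 had both below. Of the 10 that passed the filter, 5 stood above and 1 below, where 18.3% and 19.8% of all genes tested did so. The summed level of the 12 without Cd68 was 26.8 and 29.4 FPKM in WT 1 and WT 2 and 43.0 and 38.5 FPKM in KO 1 and KO 2. That sum moved in the same direction as Plaur, but Lyz2, Marco and Cd5l made up most of its rise. Cd68 made up most of the full sum, which was 384 and 380 FPKM in WT 1 and WT 2 and 436 and 504 FPKM in KO 1 and KO 2. Cd68 itself stood at 357 and 351 FPKM in the WT libraries against 393 and 465 in the KO libraries, with KO above WT (log2 difference 0.27). Marco, a Kupffer cell scavenger receptor, stood at 2.54 and 3.14 FPKM in the WT libraries against 6.28 and 5.70 in the KO libraries, and Lyz2, lysozyme of myeloid cells, at 6.84 and 7.86 FPKM in the WT libraries against 16.6 and 11.9 in the KO libraries. Plaur was 10.8 to 18.1 times Marco and 4.09 to 6.73 times Lyz2 in the same libraries. The complement genes C1qa (KO below WT, log2 difference -0.14), C1qb (-0.04) and C1qc (-0.15) did not stand higher in KO, and Clec4f, Csf1r and Timd4 had overlapping genotypes. Markers other than Cd68 and Lyz2 were named after their values were seen. The part of macrophages in the difference of Plaur was not tested.

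Neutrophil markers were at or near 0. S100a9, Ly6g, Retnlg and Ngp were listed at 0 in all 4 libraries, and the 8 markers summed to 0.291 and 1.04 FPKM in the WT libraries against 0.440 and 0.901 in the KO libraries. Lymphocyte markers (0 to 0.191 FPKM, with Cd3g, Cd79a and Nkg7 at 0 in all 4) and mesothelial markers (0 to 0.0309 FPKM, with Upk3b and Lrrn4 at 0 in all 4) were as low. Sinusoidal endothelial markers, 8 genes all above 0, summed to 47.5 and 50.7 FPKM in the WT libraries against 66.4 and 34.9 in the KO libraries, and the 8 stellate cell and fibroblast markers, also all above 0, to 13.9 and 16.2 FPKM in the WT libraries against 24.4 and 10.7 in the KO libraries. KO 1 was thus highest in both sums, as it was in Serpine2 and Plgrkt, but KO 2 and not WT 2 was lowest. Most of the stellate sum was Dcn, at 8.31 and 8.39 FPKM in the WT libraries against 17.5 and 7.02 in the KO libraries. Reln, the next highest, had KO below WT, at 3.47 and 5.65 FPKM in the WT libraries against 2.79 and 2.33 in the KO libraries. The part of these cell types in the spread of Serpine2 was not tested. The 6 cholangiocyte markers summed to 35.5 and 32.4 FPKM in the WT libraries against 36.9 and 23.2 in the KO libraries, mostly from Spp1 and Sox9.

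**Figure D4:**
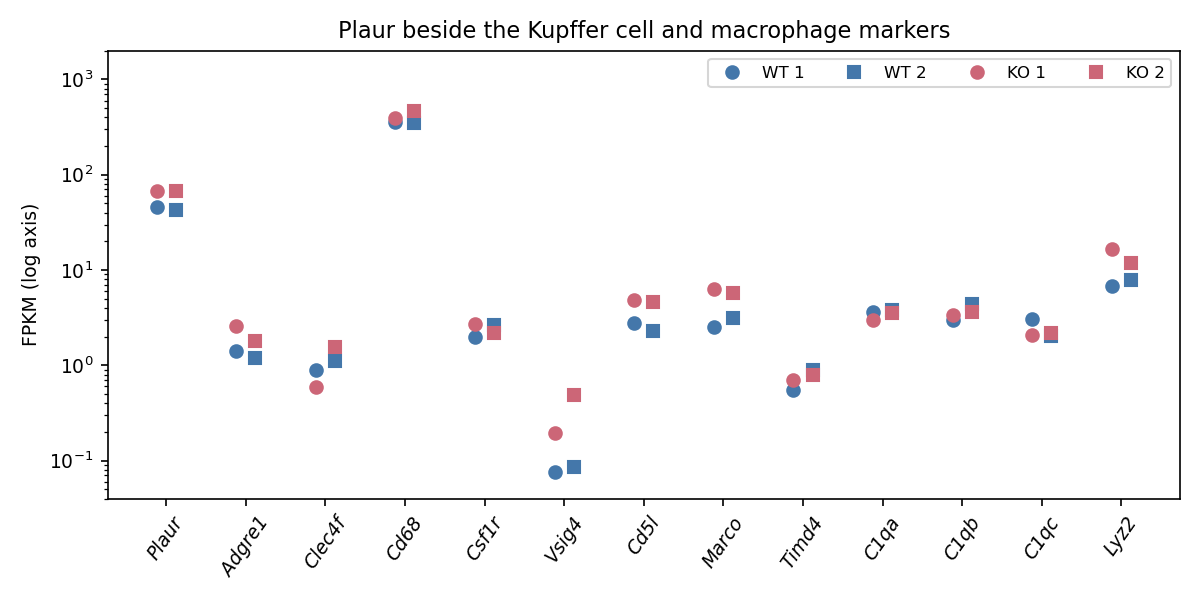
Level of Plaur and of 12 Kupffer cell and macrophage markers in FPKM on a log axis, with 1 point per library, blue for WT and red for KO, circles for the libraries numbered 1 and squares for those numbered 2. Plaur lies above every marker but Cd68. The KO points of Cd68, Marco, Cd5l, Lyz2, Adgre1 and Vsig4 lie above their WT points, and those of C1qa lie below. Those of C1qb, C1qc, Clec4f, Csf1r and Timd4 overlap with WT, and Vsig4 and Timd4 did not pass the filter.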

How the data were processed

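RNA from 4 libraries, 2 per genotype, had been sequenced after a stranded Illumina TruSeq mRNA preparation, per the labels' protocols. The replicates are biological, per the series' design. The authors deposited 1 table with 1 value per gene and library, read here as FPKM because Cufflinks and Cuffdiff 2.2.1 stand beside STAR 2.5.0 and mm10 in the submitters' processing notes (without a role or order), and because the values are not whole and library totals differ (498348 to 546967). The column names state no unit. Annotation and strand setting: not given in the sources used here.

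Of 22079 identifiers, 21984 matched a symbol in GENCODE M21. Values were transformed as log2(FPKM + 1), and the 10407 genes averaging 1 FPKM or more were compared with limma 3.58.1 in R 4.3.3 (eBayes with an intensity trend, genotype as the only term, two-sided, Benjamini-Hochberg adjusted p under 0.05). The comparison was tested on simulated data with independent normal noise and differences of 1 or 2 on the log2 scale. That simulation does not measure the power for smaller differences, such as that of Plaur. With 2 libraries a group, the smallest p of an exact permutation test is 0.333. Depth was estimated as the number of fragments at which the lowest values of genes with 1 transcript of at least 1500 bases come nearest to whole fragments of 200 bases, an assumed length. Only 31.8% to 36.8% of those values came within 0.1 of a whole number, so whole fragments were not recovered and no count model was run. Fragments behind a gene use its longest transcript, and intervals are exact Poisson intervals at 95%.

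The members and all gene lists were chosen with earlier results of these data known. The genes named are the 5 members, the 3 with the largest difference and the 3 with the highest level in each list, the 5 nearest to Plaur leaving out unnamed gene models (an exception added after the values were seen), and its 3 protein-coding neighbours on each side, of which AC161166.1 was not analysed here. Hepatocyte, immune, endothelial, stellate, cholangiocyte and mesothelial marker lists describe levels and assign no cells. Of the lymphocyte list, 1 gene was left out of all values. Alternatives were other pseudocounts, filters, scalings, a replicate term, no trend, and each library left out.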

Additional observations from a re-analysis of the deposited data

How the results depend on the processing

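Plaur kept its direction under all 12 alternatives and ranged from 0.55 to 0.65 on the log2 scale with 1 library left out. That direction is no check, since Plaur was chosen on these values and both KO values exceeded both WT values. Leaving out a library could not reverse it, and the filters, the replicate term and the trend cannot change the difference of a gene. With 1 library left out, Plau ranged from -0.14 to -0.01, Plat from 0.06 to 0.10, Serpine2 from 0.0011 to 1.58, Plgrkt from -0.06 to 0.42, and the median of the wider list from -0.11 to 0.05. With a pseudocount of 0.1 Plau came to -0.19 and Plat to 0.22, and with 0.5 Plat came to 0.12, because both lie under 1 FPKM. With no filter the median of the wider list was 0.0048. The number of genes called by limma was 0 with all libraries and under every other setting with all 4, and ranged from 0 to 8 with 1 library left out (8 without WT 1, 5 without KO 1), none of them in the wider list. An arm of 1 library is then assumed to vary like the other. The unadjusted count of 759 became 318 without WT 2 and 1227 without KO 2. Genes with libraries that did not overlap ranged from 6465 to 7728, and in the wider list from 20 to 37, with 1 library left out; 3 libraries separate more easily than 4.

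The libraries share replicate numbers, but no label says that a number marks a shared day or animal. Deviations of same-numbered libraries from their group means correlated at 0.151 across genes. With the replicate number as a block, 0 genes were called by limma, and 1054 genes had an unadjusted p under 0.05 against 759 without it. The difference of Plaur was 0.60 either way, which is no check: a number shared evenly by the genotypes cannot change it. At an estimated 17 to 28 fragments a value, depth limits Plau and Plat.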
